A study of Bos taurus with 31 samples.

Results

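The 4 casein genes and HSTN, their neighbour in the casein cluster on bovine chromosome 6, were followed through RNA sequencing libraries of mammary epithelial organoids from dairy cows. The members were the rows of the deposited count table that carry the names CSN1S1, CSN2, HSTN, CSN1S2 and CSN3. They are 5 of 14084 rows, each gene with 1 row whose counts no other row repeats. Organoids here are clumps of epithelium freed from biopsy tissue by digestion with collagenase, trypsin and hyaluronidase and enriched by short spins. Of the 31 libraries, 15 came from virgin heifers at 14 months of age and 16 from lactating cows 40 to 60 days into lactation. They came from 16 cows, 15 of which gave both libraries, while the cow of L495 gave only a lactating one. All animals are dairy cows. The labels name no further genotype or treatment, and each organoid library is of 1 cow. A library is named by its stage letter and the number of its cow, so that V509 and L509 came from the same animal.

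Caseins are the main proteins of cow's milk, and mammary secretory cells make them in large amounts during lactation. The alpha-S1, beta and alpha-S2 caseins, encoded by CSN1S1, CSN2 and CSN1S2, carry clustered phosphoserines that bind calcium phosphate, whereas kappa-casein, encoded by CSN3, is a glycosylated protein that coats the surface of the casein micelle and keeps it in suspension. In mouse and cell-culture work, prolactin acting through STAT5, with glucocorticoid receptor and C/EBP beta, drives transcription of the calcium-sensitive caseins. HSTN encodes histatherin, a small secreted peptide related to the statherin and histatin peptides of human saliva. In the RefSeq gene order the cluster runs SULT1B1, SULT1D1, SULT1E1, CSN1S1, CSN2, HSTN, STATH, CSN1S2, PRR27, ODAM and CSN3.

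Total counts ranged from 20128378 to 60114505 in virgin and from 26827018 to 72138358 in lactating libraries. In these totals 592 loci are counted more than once, since they are listed in more than 1 row with identical counts. With each locus taken once, totals ranged from 12477568 to 38794104 in virgin and from 17637505 to 45478555 in lactating libraries. All 10 luminal epithelial markers, among them KRT8, KRT18 and EPCAM, had counts in all libraries, with summed levels of 2142 to 9818 CPM (counts scaled to a common library size) in virgin and 1596 to 4551 CPM in lactating libraries. Of these 10, 5 were called lower in lactation, KRT8 and KRT18 among them, and 5 were not called, beside 30.9% of all rows tested called lower and 24.2% higher. Markers of other cells were present as well and many moved with stage. All 6 endothelial markers were called higher in lactation (summed 33.5 to 678 CPM before and 236 to 1530 CPM in lactation), as were all 6 lymphocyte markers (4.98 to 50.6 and 35.0 to 85.4 CPM) and 4 of 5 macrophage markers (13.3 to 59.9 and 104 to 543 CPM). Of 6 fibroblast markers, 4 were lower and 2 not called, of 7 myoepithelial markers, 2 were lower, 1 higher and 4 not called, and of 4 adipocyte markers, 2 were higher, 1 lower and 1 not called. Summed fibroblast markers ranged from 323 to 21223 CPM in virgin libraries, highest in V502, and from 500 to 1557 CPM in lactating ones. No marker of these lists was at 0 in any library. Their part in the casein results was not tested. In such bulk samples, fewer secretory cells and less casein RNA per cell cannot be told apart. Lactating libraries were taken later in life and after calving, so the effects of stage, age, parity and sampling time cannot be told apart.

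All 5 genes were far higher in lactating organoids. CSN1S1, CSN2 and CSN1S2 went from near 0 in most virgin libraries to medians of 24751 to 95886 CPM in lactation, and HSTN from 0 counts in 11 of 15 virgin libraries to a median of 224.7 CPM. CSN3 differed from the other caseins in that all virgin libraries already held it at 152.7 CPM or more, and its rise was smaller. The 4 caseins together took 0.0199% to 0.339% of all counts in virgin libraries and 0.144% to 34.9% in lactating ones. With rows of identical counts taken once, these shares were 0.0279% to 0.526% and 0.232% to 45.8%. Each of the 5 genes was called higher (adjusted p under 0.05 by the quasi-likelihood test of edgeR, Benjamini-Hochberg over all rows tested), a call made for 24.2% of the 13180 rows tested, and each was called more than 2-fold higher (edgeR glmTreat), as were 5.39% of rows. All 5 were higher in lactation in 15 of 15 cows, which held for 7.41% of rows.

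CSN2, the beta-casein gene (ENSBTAG00000002632), stood in virgin libraries at 0.103 CPM in V581, at a median of 3.11 CPM and at 1208.1 CPM in V509. In lactating libraries it stood at 220.1 CPM in L538, at a median of 95886 CPM and at 266527 CPM in L479. The groups overlapped: 3 virgin libraries, V509, V490 and V479, lay above L538, and V509 also above L478 (500.1 CPM). The mean level was 119.5 ± 313 CPM (SD, n = 15) in virgin and 93079 ± 84155 CPM (SD, n = 16) in lactating libraries, a 779-fold ratio of means. In the fit this was 9.60 ± 1.49 on the log2 scale (SE; edgeR adjusted p = 2.71e-06). Only 5 rows had a larger log2 fold change, CSN1S2, HSTN and CSN1S1 among them.

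CSN1S1, the alpha-S1-casein gene (ENSBTAG00000007695), had the same highest virgin and the same highest and lowest lactating library. It stood at 0.0914 CPM in V598, at a median of 1.19 CPM and at 515.1 CPM in V509 among virgin libraries, and at 177.9 CPM in L538, at a median of 74611 CPM and at 190386 CPM in L479 among lactating ones. The groups overlapped again, with V509, V479 and V490 above L538, and V509 also above L478 (487.0 CPM). The ratio of mean CPM was 999-fold, from 66.8 ± 148 (SD, n = 15) to 66754 ± 58702 CPM (SD, n = 16), and on the fitted log2 scale the rise was 9.96 ± 1.48 (SE; edgeR adjusted p = 1.34e-06).

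CSN1S2, the alpha-S2-casein gene (ENSBTAG00000005005), had no count in 7 virgin libraries, where 0 counts allow a level of up to 0.0530 to 0.108 CPM (3 counts in that library, counting error only). The virgin median was 0.0219 CPM and the highest virgin level 108.8 CPM in V479. Lactating libraries stood at 46.8 CPM in L538, at a median of 24751 CPM and at 64776 CPM in L479. V479 and V490 (66.3 CPM) were above L538, and all other virgin libraries were below every lactating one. Mean levels of 13.1 ± 31.7 (SD, n = 15) and 24312 ± 22116 CPM (SD, n = 16) went with a fitted log2 rise of 10.87 ± 1.69 (SE; edgeR adjusted p = 2.62e-06).

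CSN3, the kappa-casein gene (ENSBTAG00000039787), stood at 152.7 CPM in V502, at a median of 276.8 CPM and at 835.8 CPM in V509 among virgin libraries. In lactation it stood at 1054 CPM in L538, at a median of 23793 CPM and at 63716 CPM in L479. Its groups did not overlap, the lowest lactating library lying above V509, as for 1.15% of rows. The fitted log2 rise was 6.19 ± 0.52 (SE; edgeR adjusted p = 6.63e-11), from 347 ± 189 (SD, n = 15) to 25276 ± 20636 CPM (SD, n = 16). The virgin range of CSN3 spanned 5.47-fold, against 11680-fold for CSN2 and 5638-fold for CSN1S1, so that the genes of one cluster varied very unequally among heifers. The sizes of the folds of CSN2 and CSN1S1 are rough, since their lowest levels rest on 4 counts in V581 and 5 in V598.

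HSTN (ENSBTAG00000048250) had 84 counts over all virgin libraries together. Of these, 35 were in V490 (0.873 CPM), 40 in V509 (0.506 CPM), 8 in V479 (0.437 CPM) and 1 in V610 (0.0184 CPM). The other 11 virgin libraries were at 0, which allows up to 0.0530 to 0.109 CPM. In lactation HSTN stood at 0.572 CPM in L538, at a median of 224.7 CPM and at 544.8 CPM in L495. Only V490 lay above the lowest lactating library, L538, where the value rests on 21 counts. The fitted log2 rise was 10.83 ± 1.02 (SE; edgeR adjusted p = 4.57e-10), with mean levels of 0.122 ± 0.265 (SD, n = 15) and 237 ± 211 CPM (SD, n = 16).

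**Figure D1:**
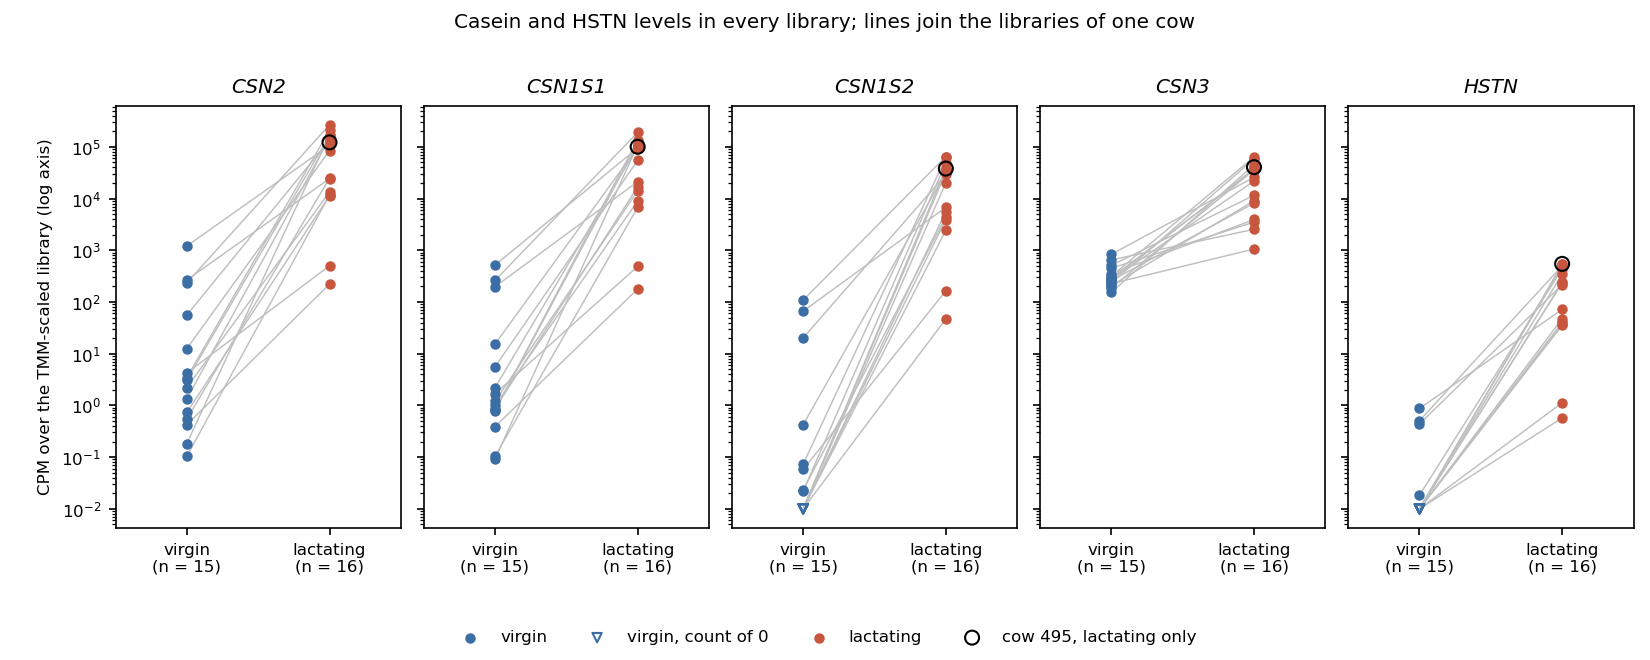
Level of each gene in CPM over the TMM-scaled library (log axis) in 15 virgin and 16 lactating libraries, with lines joining the libraries of 1 cow, triangles for a count of 0 and a ring for L495, whose cow has no virgin library. CSN3 is the one gene whose groups do not overlap, and L538 is the lowest lactating library for all 5 genes.

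The size of these fitted changes rested on a few virgin libraries. Leaving out V509 gave 10.91 for CSN1S1 and 11.12 for CSN2, leaving out V490 gave 11.56 for HSTN, and leaving out V479 gave 11.93 for CSN1S2, while CSN3 stayed between 6.03 and 6.34 whichever library was left out. V479, V490, V509 and V610 were also left out together. The log2 fold change was then 15.61 for CSN1S1, 15.10 for CSN2, 20.37 for CSN1S2, 16.10 for HSTN and 6.39 for CSN3. That of HSTN is then against 0 counts and is no measured size. That of CSN1S2 is hardly one either, since the virgin libraries left held at most 2 counts of it each, and 7 held 0. With the cow as a block, in 30 libraries, the values were 13.00, 12.82, 16.34, 11.36 and 5.57 for the same genes in that order. With limma-voom and no block they were 13.04, 12.74, 16.07, 11.55 and 5.60, so the values also moved without pairing by cow. Each of the 5 genes remained called in each of these fits. The authors' deposited table gives log2 fold changes of 9.97 for CSN1S1, 9.61 for CSN2, 10.87 for CSN1S2, 10.91 for HSTN and 6.21 for CSN3. Over all rows tested, the median was -0.08 with TMM factors and -0.56 without them.

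Cows differed widely in how far the genes rose. Within cows, the log2 CPM of CSN3 was higher in lactation by 1.97 in the cow of L478, by a median of 5.44 and by 8.21 in that of L502. V502, the virgin library of the latter cow, had the lowest CSN3 level of all libraries. Its summed fibroblast markers were 21223 CPM, the next virgin library, V581, having 2261 CPM. The part of these cells in the difference was not tested. For CSN2 the difference ran from 6.47 in the cow of V509, which had the highest virgin level, to 19.46 in that of V598, which held 10 counts of it. HSTN ran from 3.59 in the cow of L538, which held 21 counts of it, to 13.35 in that of L598. V538 and V598 both held 0 counts of HSTN, as did 11 of 15 virgin libraries in all. In those cows the size of the difference depends on the prior count. The SD of log2 CPM over libraries was 3.95 in virgin and 3.05 in lactating libraries for CSN2, and 0.68 and 1.82 for CSN3, so the 2 genes spread unequally in both stages.

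Lactating libraries fell apart by casein level. L538 and L478 held CSN2 at 220.1 and 500.1 CPM, and the next library, L531, at 11269 CPM. L581, L504, L490 and L615 followed at 11687 to 24769 CPM, and the other 9 lay between 84604 and 266527 CPM. The same 2 libraries were lowest for each of the 5 genes. Their summed luminal markers were 4551 CPM in L478 and 4049 CPM in L538, above the 1596 to 3505 CPM of the other 14 lactating libraries. Endothelial markers (236 and 238 CPM) and adipocyte markers (91.7 and 28.3 CPM, 4 of 5 in the table) were below the ranges of the other 14, which were 345 to 1530 and 136 to 1223 CPM. The adipocyte sum was nearly all FABP4, with a lactating mean of 498 CPM. ADIPOQ had a mean of 1.52, PLIN1 of 1.04 and PLIN4 of 0.925 CPM, so the sum says little of adipocytes. Fibroblast markers were at 500 CPM in L478 and 875 CPM in L538 (685 to 1557 CPM in the others), macrophage markers at 117 and 109 CPM (104 to 543), lymphocyte markers at 35.0 and 41.6 CPM (37.9 to 85.4) and myoepithelial markers at 824 and 748 CPM (703 to 1632, 7 of 8 in the table). The part of any of these cells in the low casein levels was not tested. L478 had the highest total count of all libraries. Without both libraries the log2 fold changes were 10.16 for CSN1S1, 9.80 for CSN2, 11.06 for CSN1S2, 11.02 for HSTN and 6.37 for CSN3.

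Levels of different genes were compared per kilobase of counted locus. These loci, at 13752 bases for CSN2, 17540 for CSN1S1, 18479 for CSN1S2, 15392 for CSN3 and 14703 for HSTN, are the lengths the authors divided by and are of gene rather than transcript size, so the order is one of reads per locus length. The CSN2 and HSTN loci, neighbours in the cluster, were longer than their RefSeq genes in another build, and whether reads of one were counted to the other is not given. On this scale the lactating order was CSN2 (6768 ± 6119 CPM per kilobase, SD, n = 16), CSN1S1 (3806 ± 3347), CSN3 (1642 ± 1341), CSN1S2 (1316 ± 1197) and HSTN (16.1 ± 14.4). CSN2 and CSN1S1, and CSN3 and CSN1S2, differed by less than their SD over libraries, CSN1S1 and CSN3 by more than the SD of CSN3 but less than that of CSN1S1, and CSN1S2 and HSTN by more than the SD of either. Within libraries the order was firmer: CSN2 was above CSN1S1 in 16 of 16, CSN1S1 above CSN1S2 in 16 of 16 and HSTN lowest in 16 of 16. CSN3 was above CSN1S2 in 15 of 16, L502 being the exception, although by raw counts CSN3 was the higher in 12 of 16. CSN1S1 and CSN2 were above CSN3 in 14 of 16, the exceptions being L478 and L538. In virgin libraries CSN3 led in 14 of 15 (22.6 ± 12.3 CPM per kilobase), and in V509 it came second to CSN2.

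Kappa-casein made up nearly all casein RNA in most virgin libraries and a small part of it in most lactating ones. As a share of the 4 caseins per length, CSN3 stood in virgin libraries at 31.5% in V509, at a median of 98.3% and at 99.95% in V581. The 4 lowest of them were V509, V479 (35.2%), V490 (49.2%) and V610 (79.3%). In lactating libraries CSN3 stood at 10.0% in L502, at a median of 13.9% and at 70.5% in L538. L538 and L478 (69.3%) stood apart, and L504 came next at 22.5%, so the stages overlapped in this share. By raw counts, CSN3 held 70.3% of casein counts in L538 (Wilson 95% interval 69.9% to 70.7%), 68.8% in L478 (68.65% to 69.01%) and 32.4% in V509 (32.2% to 32.6%), intervals that cover counting error only.

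The other 3 caseins shared the rest in lactation in parts that varied among libraries. Per length their order, CSN2, CSN1S1 and CSN1S2, was the same in 16 of 16. Per length, CSN2 made up 44.6% ± 12.0 of casein RNA, CSN1S1 26.0% ± 6.18, CSN3 20.6% ± 19.5 and CSN1S2 8.78% ± 2.46 (SD, n = 16). Without L478 and L538 the shares were 48.7% ± 4.55, 28.1% ± 2.16, 13.6% ± 3.48 and 9.58% ± 1.19 (SD, n = 14). Leaving out those 2 libraries thus left SDs of a few percentage points over lactating libraries whose CSN2 level ranged from 11269 to 266527 CPM.

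**Figure D2:**
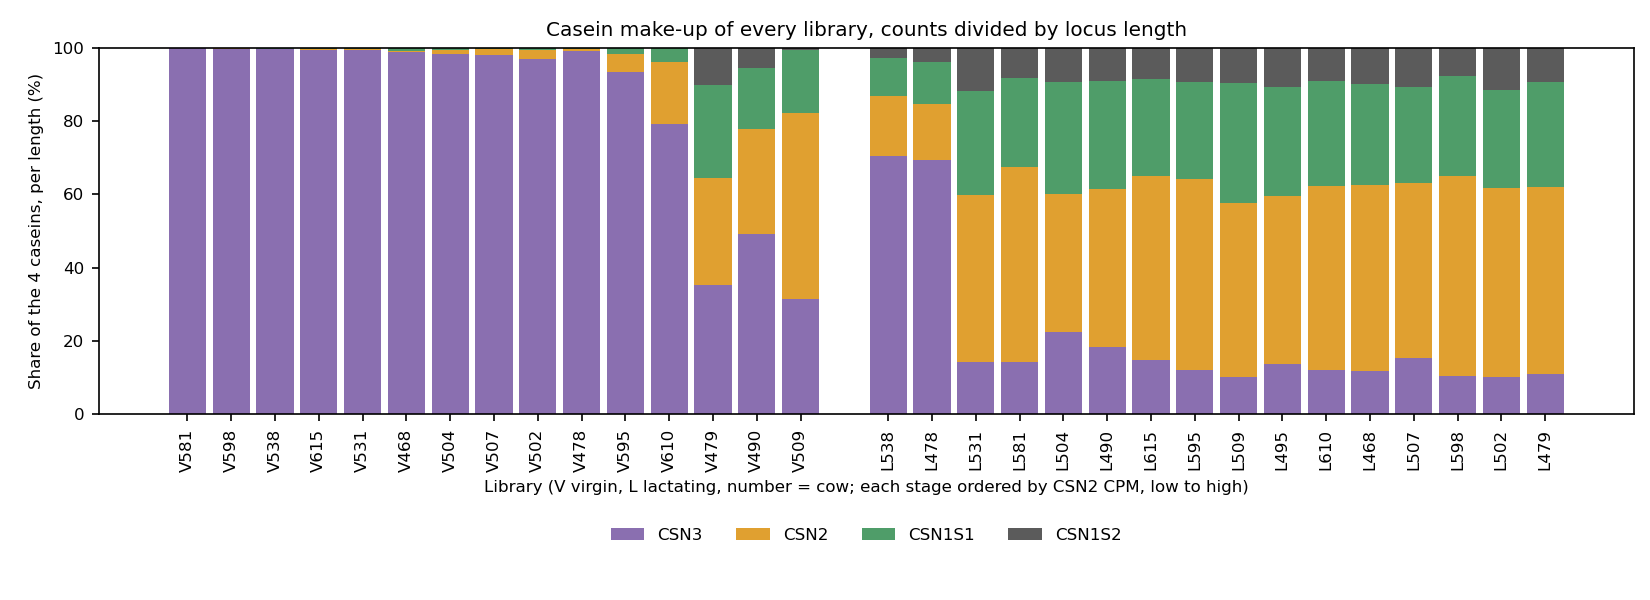
Share of each of the 4 caseins (%), counts divided by locus length, in every library, each stage ordered from low to high CSN2 level. CSN3 fills nearly the whole bar in most virgin libraries, 70.5% in L538 and 69.3% in L478, and 10.0% to 22.5% in the other 14 lactating libraries.

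Ratios within a library need no library size, and their change between stages does not depend on locus length. Per 100 counts of CSN2, CSN1S1 had 76.5 ± 13.0 counts in lactation (SD, n = 16), from 58.0 in L581 to 104.6 in L504. CSN1S2 had 26.8 ± 4.80, from 19.2 in L598 to 34.8 in L531. For both ratios, L478 and L538 lay within the range of the other lactating libraries, which held far more casein. Per 100 counts of CSN1S1, CSN1S2 had 33.8 counts in L478 and 26.3 in L538, the latter below the 30.05 to 45.27 of the other 14. CSN3, by contrast, had 508.5 counts per 100 of CSN2 in L478 and 478.9 in L538, against 21.3 in L598 to 67.2 in L504 in the other 14. HSTN had 0.277 ± 0.097 counts per 100 of CSN2 (SD, n = 16), from 0.0813 in L479 to 0.465 in L509. L479, the library highest in all 4 caseins, thus had the lowest share of HSTN, at 216.6 CPM.

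The 10 pairwise ratios were tested between stages on the log2 scale with a pseudocount of 0.5 counts (two-sided permutation test, 100000 resamples, adjusted over the 10 pairs). The ratio of CSN1S1 to CSN2 did not pass: it was -0.41 ± 0.24 in lactating (SD, n = 16) and -0.67 ± 0.95 in virgin libraries (SD, n = 15), a difference of 0.27 (permutation p = 0.286), higher in lactation in 9 of 15 cows. The ratio of CSN3 to CSN2 was lower in lactation by far, -1.21 ± 1.44 against 5.96 ± 3.74, a log2 difference of -7.17 (permutation adjusted p = 1.43e-05), and lower in 15 of 15 cows. That of CSN3 to CSN1S1 differed by -7.44 and that of CSN3 to CSN1S2 by -10.54, with the same adjusted p, from the smallest p of 1e-05 that these resamples can give. CSN1S2 rose more than the 2 other calcium-sensitive caseins, its ratio to CSN2 differing by 3.37 and that to CSN1S1 by 3.11 (permutation adjusted p = 1.43e-05 each), higher in 14 and 13 of 15 cows. In 7 virgin libraries that ratio rests on the pseudocount, and over the 4 virgin libraries with at least 10 counts of both genes the differences were 2.08 (permutation adjusted p = 0.0594) and 1.64 (permutation adjusted p = 0.0583).

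Ratios of HSTN in virgin libraries rest mostly on the pseudocount, since 11 of 15 hold no count of it. The ratio of HSTN to CSN2 differed by -1.22 with 0.5 counts added (permutation adjusted p = 0.0579) and by -2.70 with 2 counts added. Over libraries with at least 10 counts of both genes, only V490 and V509 among virgin ones, it differed by 1.12 (permutation adjusted p = 0.131). The ratio of HSTN to CSN1S1 differed by -1.48 (permutation adjusted p = 0.00769), or by 0.70 over such libraries, and that to CSN1S2 by -4.59 (permutation adjusted p = 1.43e-05), or by -0.91. The 7 virgin libraries without a count of CSN1S2 held none of HSTN either, so there the pseudocount alone sets that ratio. No direction is therefore given for HSTN relative to CSN2, CSN1S1 or CSN1S2. HSTN rose more than CSN3, with a log2 difference of 5.95 in their ratio (permutation adjusted p = 1.43e-05), higher in 15 of 15 cows, and 2.54 over libraries with at least 10 counts (permutation adjusted p = 0.0654).

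**Figure D3:**
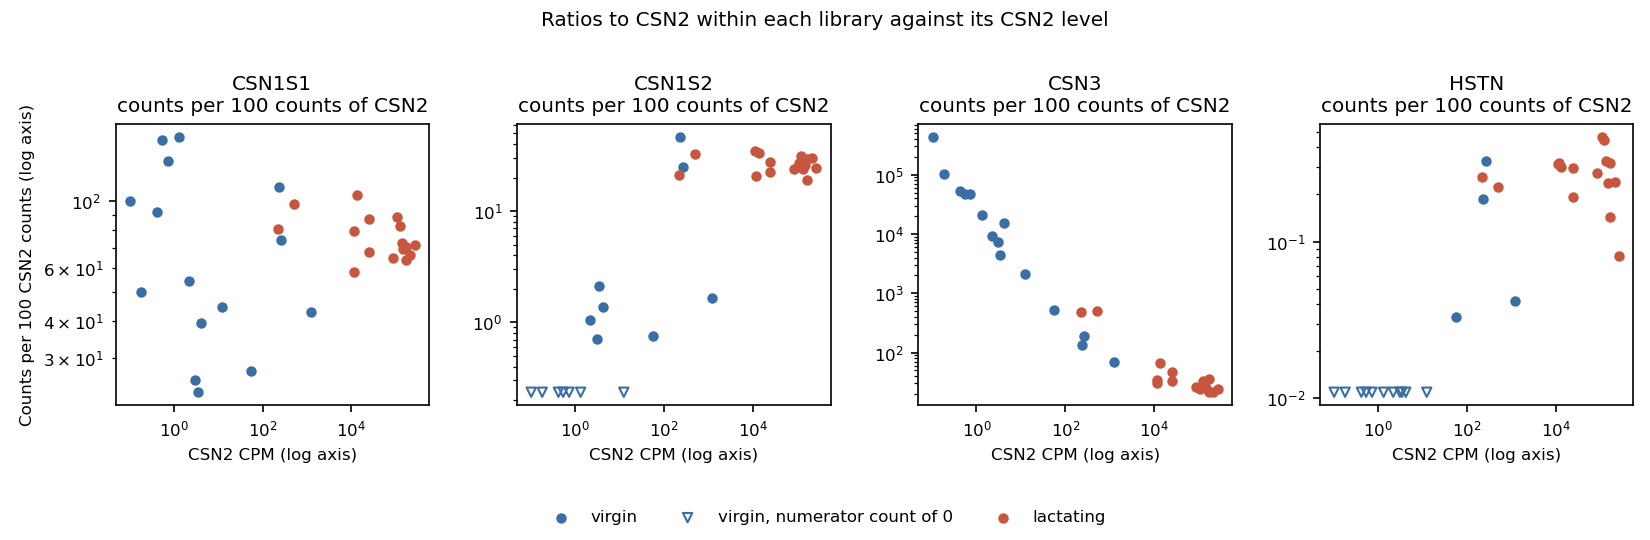
Counts of CSN1S1, CSN1S2, CSN3 and HSTN per 100 counts of CSN2 in each library (log axis) against that library's CSN2 level in CPM (log axis), with triangles for a count of 0; the same CSN2 count enters both axes. CSN1S1 and CSN1S2 keep to 58.0 to 104.6 and 19.2 to 34.8 in lactating libraries, while CSN3 lies at 508.5 in L478 and 478.9 in L538.

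V479, V490, V509 and V610 were the virgin libraries with counts of HSTN, and they were also the 4 highest for CSN2 and for CSN1S1. Their proportions were unlike each other. V490 held 74.1 counts of CSN1S1, 24.9 of CSN1S2 and 0.328 of HSTN per 100 of CSN2, all within the lactating ranges, and V479 held 111, 46.5 and 0.187. V509, with the most CSN2 of any virgin library, held 42.6 counts of CSN1S1, 1.67 of CSN1S2 and 0.0419 of HSTN per 100 of CSN2, all below the lactating ranges. V610 was similar to V509, with 27.3, 0.756 and 0.0329, the last from 1 count. Per 100 counts of CSN1S1, CSN1S2 stood at 33.6 in V490 and 41.9 in V479 but at 3.91 in V509 and 2.77 in V610. Summed luminal markers were 9818 CPM in V479, the highest of all libraries, 3962 CPM in V490, 2287 CPM in V509 and 2298 CPM in V610. V479 also had the highest sum of myoepithelial markers, 5536 CPM, the next virgin library having 5365 CPM and the lowest 969 CPM. The part of these cells in the virgin casein counts was not tested.

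Across lactating libraries the caseins moved together. Because L478 and L538 formed a separate cluster at the low end, correlations of log2 CPM were taken over the other 14. The 6 pairs of caseins had Pearson r of 0.971 to 0.993 and Spearman rho of 0.930 to 0.991 (permutation p adjusted over 28 relations 4e-05 each). The closest ranks were those of CSN1S2 and CSN3 (rho 0.991) and the least close those of CSN2 and CSN3 (rho 0.930). HSTN followed the caseins less closely, with r of 0.881 to 0.925 and rho of 0.692 to 0.714 (adjusted permutation p of rho 0.014 to 0.0157). Where CSN2 was at 11269 to 24769 CPM, HSTN stood at 35.3 to 71.6 CPM. Where CSN2 was at 84604 to 266527 CPM, HSTN stood at 216.6 to 544.8 CPM. Within that upper range L479 had the most CSN2 and the least HSTN, while L595 had the least CSN2 and 232.9 CPM of HSTN. Whether HSTN follows the caseins within either range was not tested. Without L531 and L581, the libraries farthest from the median, r was 0.962 to 0.992 among caseins and 0.812 to 0.885 for HSTN with them. All genes of a library share its scaling, and with the members left out of the library totals r changed by at most 0.0192.

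In the same 14 libraries, the log2 ratio of CSN3 to CSN2 was lower where CSN1S1 was higher (r = -0.603, adjusted permutation p = 0.0336; rho = -0.578, adjusted permutation p = 0.0556), and r was -0.775 without L531 and L581. The ratios of CSN1S2 to CSN2 (r = -0.094, adjusted permutation p = 0.779) and of HSTN to CSN2 (r = -0.277, adjusted permutation p = 0.427) did not pass.

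In virgin libraries, CSN1S1 and CSN2 moved together over 15 libraries (r = 0.972, rho = 0.889, adjusted permutation p = 4e-05 each; r = 0.951 without V509 and V479). CSN3 followed them less: with CSN1S1, r was 0.549 (adjusted permutation p = 0.0546), rho 0.589 (0.0408) and r 0.386 without V509 and V479, and with CSN2, r was 0.505 (adjusted permutation p = 0.0860) and 0.075 without V509 and V490. No relation between a cow's virgin and lactating level passed the test. The correlation of the 2 libraries of a cow was 0.350 for CSN1S1 (adjusted permutation p = 0.271), 0.346 for CSN2 (0.273) and -0.271 for CSN3 (0.415) over 15 cows. It was 0.207 for CSN1S2 (0.568) and 0.267 for HSTN (0.488) over the 12 cows outside a separate cluster of V479, V490 and V509. Of these 12 virgin libraries only V610 held HSTN, with 1 count. For CSN1S2, 7 were at 0 counts and V610 held the most, 23. For these 2 genes the correlation therefore cannot show whether the levels of a cow are related.

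The genes with the most similar ranks over the 16 lactating libraries, searched among 8966 named rows whose mean log2 CPM was 2 or more, were in part the caseins themselves. For CSN1S1 they were CSN1S2 and CSN2 (Spearman rho 0.988 each) and LPO, which encodes the milk antibacterial enzyme lactoperoxidase (0.982). For CSN2 they were CSN1S1, LPO (0.979) and ATP2C2, a calcium pump of the secretory pathway (0.976). For CSN1S2 they were CSN3 (0.994), CSN1S1 and FABP3, a fatty acid binding protein (0.979), and for CSN3 they were CSN1S2, CD82, a tetraspanin (0.988), and SLC38A3, a glutamine transporter (0.985). HSTN had other neighbours, none of them a casein: ACSS2, an acetyl-CoA synthetase (0.906), NELL2, a secreted glycoprotein (0.897), and GSS, glutathione synthetase (0.888). Over the 15 virgin libraries, the nearest to CSN3 were FNTB, a farnesyltransferase subunit (0.832), SMARCAL1, a DNA annealing helicase (0.825), and GPT2, an alanine aminotransferase (0.807), again with no casein among them.

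Of the genes known to act on casein transcription, those for the STAT5 proteins were not called. STAT5A (log2 difference 0.24 ± 0.17, SE, edgeR adjusted p = 0.243) and STAT5B (0.13 ± 0.11, edgeR adjusted p = 0.325) were not past the threshold with TMM factors. Without them STAT5A stood at -0.25 (edgeR adjusted p = 0.113) and STAT5B at -0.36, which was then called lower (edgeR adjusted p = 0.00500). PRLR, the prolactin receptor, stood at 713 ± 309 CPM in virgin and 473 ± 243 CPM in lactating libraries, which differ by -0.59 ± 0.24 in the fit (edgeR adjusted p = 0.0391, and 0.0700 with the cow as a block), lower in 10 of 15 cows. The call was lost when any one of 16 libraries was left out, with adjusted p of 0.0503 to 0.0728 in those fits. NR3C1, the glucocorticoid receptor, rose by 0.83 ± 0.14 (edgeR adjusted p = 1.34e-05) and ELF5, an alveolar transcription factor, by 1.03 ± 0.33 (edgeR adjusted p = 0.00996), and both calls were lost without TMM factors (0.31 and 0.43). The ELF5 call was also lost without the 5 cows whose virgin sample title carries a letter (0.97, edgeR adjusted p = 0.0604). SOCS1, an inhibitor of cytokine signalling, rose by 2.13 ± 0.18 in 15 of 15 cows, while RUNX2, a transcription factor, fell by 1.42 ± 0.16 and GHR, the growth hormone receptor, fell by 1.21 ± 0.14, each lower in 15 of 15 cows. Of the 21 tested genes of that list, 10 were called higher, 4 lower and 7 not, with a median of 0.37 (log2), beside 24.2% higher, 30.9% lower and a median of -0.08 over all rows. RUNX2 and, in the next list, GALNT6 were called more than 2-fold lower, as were 2.80% of rows. CEBPB and PGR were not analysed here.

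Genes that modify caseins or supply calcium and phosphate were mixed. FAM20C, the Golgi kinase that phosphorylates caseins, rose by 1.16 ± 0.16 (edgeR adjusted p = 2.48e-07) in 15 of 15 cows, from 25.6 ± 8.12 to 57.0 ± 18.3 CPM. GALNT6, one of the enzymes that start O-linked glycans, fell by 2.05 ± 0.23 (edgeR adjusted p = 9.00e-09) in 15 of 15 cows. ATP2C2 rose by 4.28 ± 0.42, SLC34A2, a sodium-phosphate cotransporter, by 2.56 ± 0.56 and SLC20A1, another phosphate transporter, by 1.33 ± 0.14. Of the 19 genes, 7 were called higher, 4 lower and 8 not, with a median of 0.18, beside 24.2% of all rows higher and 30.9% lower. Without TMM factors 5 were higher and 10 lower.

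Near the caseins on the chromosome, ODAM, which lies between CSN1S2 and CSN3 and encodes an enamel-associated secreted protein, rose most. Its level was 0.228 ± 0.205 CPM in virgin libraries (SD, n = 15) and 16.5 ± 11.5 CPM in lactation (SD, n = 16), a fitted log2 rise of 6.18 ± 0.58 (SE; edgeR adjusted p = 4.39e-10), higher in 15 of 15 cows. SULT1B1, a sulfotransferase on the other side of CSN1S1, rose by 2.35 ± 0.45, from 0.509 ± 0.521 to 2.60 ± 2.02 CPM. JCHAIN, farther along and known from plasma cells, rose by 2.87 ± 0.53 (3.90 without V581), with lymphocyte markers rising as given above. UTP3 and RUFY3, also farther along, were not called. Of the 6 neighbours in the table, 3 were called higher, 1 lower (GRSF1, -0.24 ± 0.10, edgeR adjusted p = 0.0487) and 2 not, with a median of 1.21, beside the 24.2% and 30.9% of all rows. Without TMM factors 3 were higher and 3 lower. The count of lower calls was not 1 but 0 or 2 in 23 of the 31 fits that left out 1 library. The other 9 listed genes were not analysed here.

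**Figure D4:**
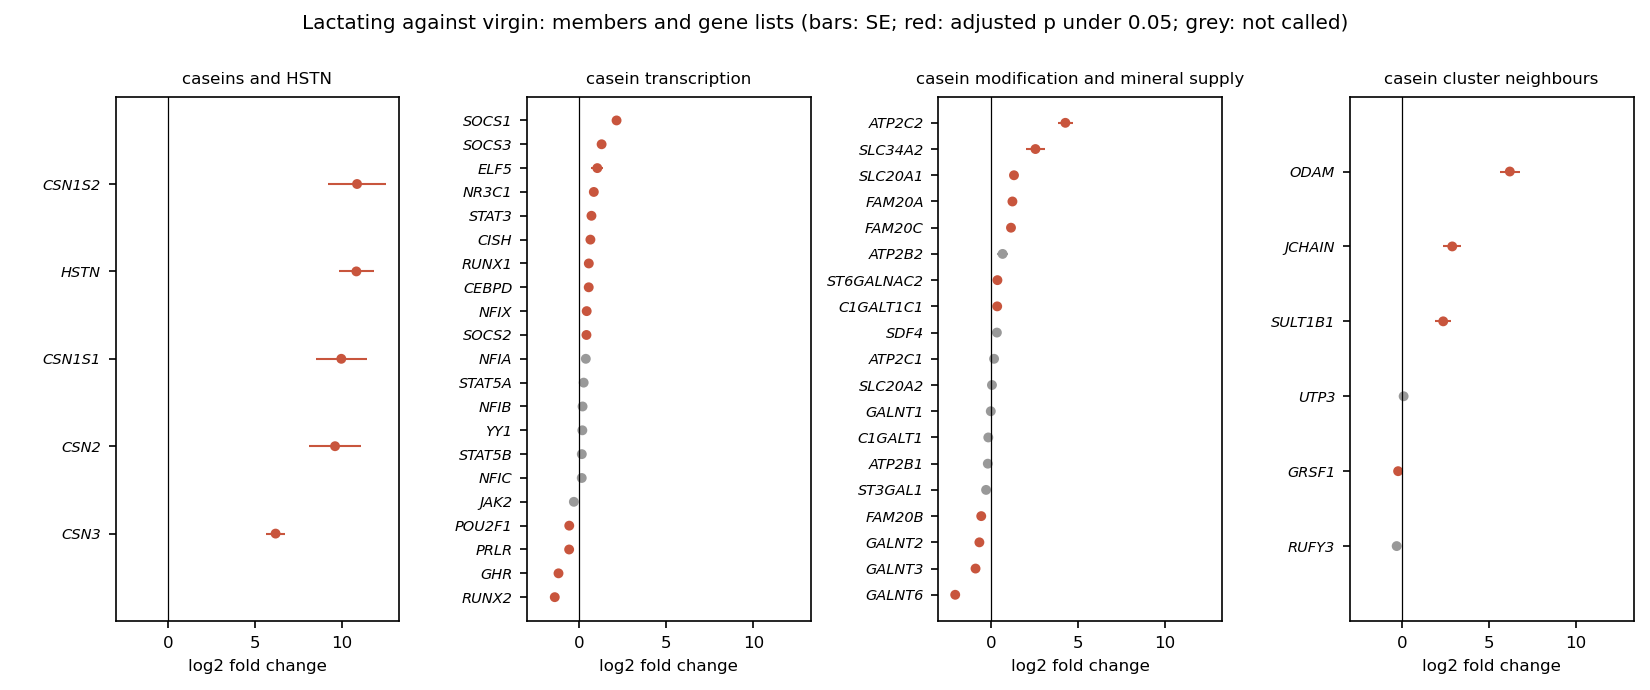
Log2 fold change, lactating against virgin, with its SE, for the caseins and HSTN and for every tested gene of the lists of casein transcription, casein modification and mineral supply, and cluster neighbours; red points have an edgeR adjusted p under 0.05 and grey ones do not. ODAM, at 6.18, lies beside CSN3, at 6.19, and no listed gene reaches the 9.60 of CSN2.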

How the data were processed

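Every result rests on the whole-number counts that the authors deposited, 1 value per gene and library, with no normalization. The deposited RPKM values, which the authors scaled by an effective library size, served only to recover the locus lengths, and the authors' log2 fold changes are quoted once; how the authors adjusted the p-values deposited beside them is not stated. The submitters' processing notes name build UMD3.1, featureCounts 1.5.2 of Subread, StringTie 1.3.2, HISAT2 2.0, SAMtools and edgeR, but not their settings or whether counting used strand. Per the labels' protocols, libraries were strand-specific and made from poly-A RNA.

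The groups were compared with edgeR 4.0.16 in R 4.3.3 (filterByExpr with minimum count 10 and minimum total 15, TMM, robust glmQLFit, glmQLFTest, group as the only term), fitted on 13180 rows and adjusted over all of them; 904 rows were not tested. The SE is the log2 fold change divided by the square root of F. CPM are over the TMM-scaled library, and log2 CPM carry a prior count of 2. Correlations were taken within clusters of at least 6 libraries, clusters being split only at the largest gap, where it exceeded 1 in 3 of the range. The scripts were tested on simulated data. The members, the gene lists and the tests were chosen with earlier results of these data known. Named list genes were those called beyond 2-fold, the 3 with the smallest p in each list and a fixed set of regulators. Similar genes were the top 3 by rank correlation. The replicate number is the cow, per the series design, and was used to pair the libraries. Deviations of the 2 libraries of a cow correlated at 0.0702 to 0.392 (mean 0.221). Values between libraries of different cows are not given here, so these correlations do not test the pairing. Alternatives included DESeq2 1.42.0 and limma-voom (limma 3.58.1), scaling, filters, a cow block and leaving out libraries. No sequences or coordinates are printed.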

Additional observations from a re-analysis of the deposited data

How the results depend on the processing

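All 5 members were called higher under every alternative run, including leaving out each library in turn. Leaving out the cows whose virgin title carries a letter gave log2 fold changes of 9.39 for CSN1S1, 8.99 for CSN2, 10.28 for HSTN, 10.27 for CSN1S2 and 6.10 for CSN3. The meaning of these letters is not given. Of 477 recomputed values outside the leave-one-out fits, 445 kept their direction and their side of the threshold or moved by less than 1.5 times; the others are given here, and the cause was not tested unless named.

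Without TMM factors 1389 rows were higher and 7751 lower, casein transcription had 2 higher and 7 lower, modification and mineral supply 10 lower and cluster neighbours 3 lower. There STAT5A stood at -0.25 and STAT5B at -0.36, the latter called lower, and the calls of ELF5 (0.43) and NR3C1 (0.31) were lost. Without the lettered cows casein transcription had 6 higher and 2 lower, and ELF5 lost its call (0.97). PRLR lost its call with limma-voom (-0.57), with the cow as replicate block (-0.55) and without the lettered cows (-0.43). The single lower neighbour, GRSF1, was lost (0 lower) with the members left out of the totals, with no filter, with limma-voom, with the block, without the lettered cows and without L478 and L538, and 2 were lower without V479, V490, V509 and V610, a setting chosen after seeing the data. Leaving out 1 library gave 0 to 2 lower. With the block, 11 casein transcription genes were higher and 3 lower, and 8 modification and mineral supply genes were higher and 4 lower; it changed the call of no member and of no ratio between them.

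With at least 10 counts of both genes, a setting with few virgin libraries, the log2 ratio differences were 2.08 for CSN1S2 to CSN2, 1.64 for CSN1S2 to CSN1S1, -0.91 for HSTN to CSN1S2, 2.54 for HSTN to CSN3, 1.12 for HSTN to CSN2 and 0.70 for HSTN to CSN1S1, the last 2 of the opposite sign. HSTN to CSN2 differed by -2.70 with a pseudocount of 2, by -2.12 without V479, V490, V509 and V610 and by -1.49 to -0.92 when 1 library was left out. HSTN to CSN1S1 differed by -1.06 without the lettered cows (permutation adjusted p = 0.170). Depth limits HSTN and CSN1S2 in virgin libraries, where 11 and 7 of 15 were at 0 counts.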
